A study of Mus musculus with 15 samples.

Results

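The clustered protocadherins were 58 of the 45777 gene symbols counted, chosen by symbol alone: 14 genes of the alpha cluster, 22 of the beta cluster and 22 of the gamma cluster. The alpha cluster held 12 numbered alpha genes with Pcdhac1 and Pcdhac2, and the gamma cluster held 12 gamma A, 7 gamma B and 3 gamma C genes. The 5 genes with a C in the symbol (Pcdhac1, Pcdhac2, Pcdhgc3, Pcdhgc4, Pcdhgc5) are the C-type members. Messenger RNA was sequenced from mouse brain, with no region given in the labels, in 5 groups of 3 libraries. High-dose and low-dose mice received MPTP, a toxin that damages dopamine neurons, at 20 mg/kg/day for 1 week, and then an unnamed inhibitor of the kinase BTK for 4 weeks, at 2 µg/kg/day (high dose) or 1 µg/kg/day (low dose). The labels also give these doses as 50 and 25 pM. Levodopa mice received the same MPTP course and then levodopa, the precursor of dopamine, at 2 mg/kg/day for 4 weeks. MPTP mice received the toxin alone, and control mice had a normal diet. The label of every library gives 6 weeks as its time, and the protocol gives 8 mice per group, without saying how mice relate to libraries.

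Clustered protocadherins are cell surface adhesion proteins of neurons. Each numbered gene has its own promoter and a large first exon that encodes the extracellular and membrane-spanning parts. A neuron switches on a small and partly random set of the numbered genes, whereas C-type genes are used more regularly and by more defined neurons. The proteins of a cell assemble into units that bind only to the same isoforms on another membrane, so that branches of 1 neuron recognise and avoid each other. Alpha and gamma transcripts splice their first exon to constant exons shared by the whole cluster, which encode a common cytoplasmic tail, and beta genes have no constant exons.

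All members lie on the plus strand of chromosome 18 in GRCm38, the alpha cluster from 36930285 to 37188897, the beta cluster from 37264998 to 37521419 and the gamma cluster from 37661775 to 37841873 in the RefSeq table. In the annotation, constant and other shared exons made up 48.6% to 54.9% of the exonic length of an alpha gene and 39.5% to 45.9% of that of a gamma gene. Beta genes shared no exonic base with another member, except Pcdhb21 and Pcdhb22, whose annotated exons overlap. The sources used here do not say how reads in shared exons were divided, so the separate counts of alpha and gamma members are uncertain, as are those of Pcdhb21 and Pcdhb22. Libraries held 58149722 to 68257095 reads, of which 36382 to 72579 (0.0617% to 0.115%) belonged to clustered protocadherins. All 58 members passed the filter on low counts and were tested.

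Marker genes of brain regions differed between libraries, within groups as well as between them. A score of each marker list was computed as the mean log2 deviation of its genes from their mean over the 15 libraries. Control 2 and levodopa 2 had cerebellum scores of 5.10 and 4.79, against at most 0.33 in the other 13 libraries. The cortex and hippocampus score ran from 0.72 to 2.09 with the inhibitor (6 libraries) and from -2.19 to 0.04 without it (9 libraries). Choroid plexus and serotonin neuron markers also varied, with scores from -2.13 to 1.88 and from -2.98 to 2.83 over all libraries. The brain label was met in every library by the neuronal gene Snap25, at 1346 to 2768 CPM, and the pan-neuronal score stayed between -0.11 and 0.17. The 6 inhibitor libraries had 58149722 to 61998459 reads and the other 9 had 63314658 to 68257095, so read depth also followed the inhibitor. So did the layout of the deposited counts, with 24 empty trailing columns for each inhibitor library and 51 for each of the other 9.

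Gamma genes took most of the protocadherin reads. Summed over its members, the gamma cluster reached 398 to 847 CPM, the read count scaled to library size with TMM factors, and made up 61.3% to 72.7% of the members' total. The alpha cluster summed to 109 to 177 CPM and the beta cluster to 89.4 to 168 CPM. Per kilobase of exonic length, C-type members had the highest median level at 8.85 CPM per kb (1.20 to 26.6). Gamma A members followed at 3.82 CPM per kb and gamma B members at 2.44 CPM per kb, while beta and numbered alpha members had 1.12 and 0.975 CPM per kb. The lowest members by mean CPM were Pcdha8, with 1 to 98 reads per library, and Pcdhb1, with 0 to 14 reads.

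**Figure D1:**
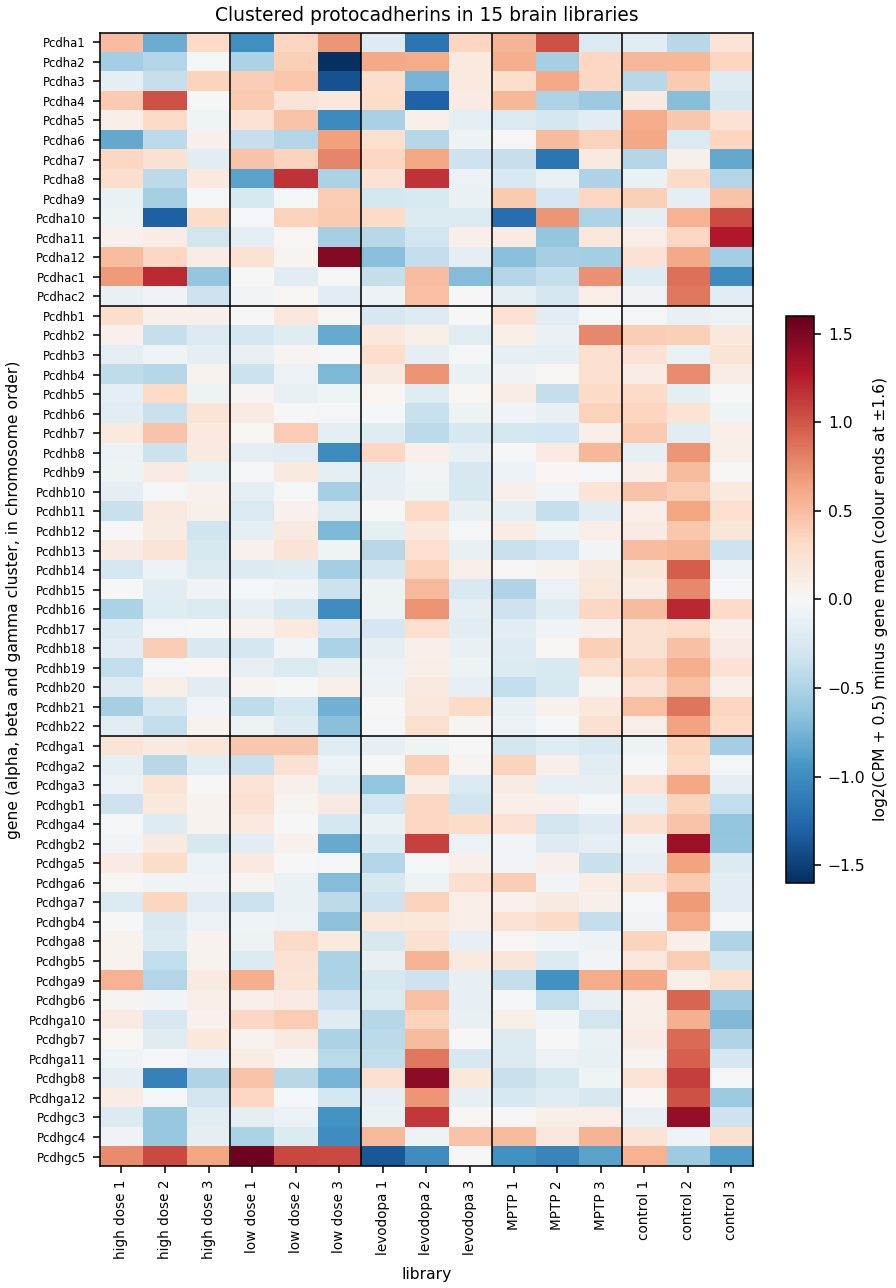
Each row is a member in chromosome order within its cluster, each column a library, and colour gives log2(CPM + 0.5) minus the gene's mean over the 15 libraries, red high and blue low. Pcdhgc5 in the last row is red in all 6 inhibitor libraries, and control 2 and levodopa 2 have many red beta and gamma cells.

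In the alpha cluster, Pcdhac2, which serotonergic axons need for even spacing in mice, was the most abundant member. It had 46.7, 49.1 and 40.2 CPM in the high-dose libraries, 49.4, 52.3 and 44.9 CPM in the low-dose libraries, 48.0, 71.1 and 51.3 CPM in the levodopa libraries, 45.6, 42.0 and 54.9 CPM in the MPTP libraries and 49.1, 91.9 and 45.4 CPM in the control libraries. Control 2 and levodopa 2, the libraries with high cerebellar markers, stood above the other 13. Levodopa 1, MPTP 3 and control 3, with serotonin neuron scores of 2.83, 2.34 and 2.16, had 48.0, 54.9 and 45.4 CPM of Pcdhac2, and the 10 libraries besides these and the 2 with cerebellar markers had 40.2 to 52.3 CPM. Pcdhac1, the other C-type gene of the cluster, was scarce, at 9.70, 14.1 and 3.65 CPM in the high-dose libraries, 5.82, 5.13 and 5.75 CPM in the low-dose libraries, 4.37, 8.50 and 3.44 CPM in the levodopa libraries, 4.11, 4.38 and 10.1 CPM in the MPTP libraries and 5.02, 11.2 and 2.67 CPM in the control libraries. Its groups overlapped throughout.

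Among the 12 numbered alpha genes, Pcdha4 had the highest level per kilobase. It reached 13.2, 20.3 and 9.78 CPM in the high-dose libraries, 13.2, 11.3 and 11.04 CPM in the low-dose libraries, 12.1, 3.67 and 10.8 CPM in the levodopa libraries, 14.4, 6.80 and 6.33 CPM in the MPTP libraries and 10.8, 5.88 and 8.08 CPM in the control libraries. Its lowest values were in levodopa 2 and control 2. The numbered alpha genes had a median coefficient of variation of 39.2% between libraries, against 51.5% for C-type, 22.0% for beta, 20.8% for gamma A and 29.1% for gamma B members. They also varied separately from each other. Leaving out Pcdha8, the median pairwise Pearson correlation over the 15 libraries was -0.07 for the other 11, with 26 of 55 pairs positive. Beta members other than Pcdhb1 had a median of 0.54 with 191 of 210 pairs positive, and gamma A and B members 0.53 with 163 of 171. These correlations share the libraries' depth and regional makeup, and without control 2 and levodopa 2 the medians were -0.11, 0.47 and 0.33. For alpha and gamma genes, the unknown division of reads in shared exons enters the correlations and the coefficients of variation too. Summed, the 12 numbered alpha genes had 69.6 ± 7.37 CPM (mean ± SD of 15 libraries).

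Beta genes had coefficients of variation from 13.3% (Pcdhb3) to 65.9% (Pcdhb1), with 44.8% for Pcdhb16. Pcdhb17, the beta gene with the most reads, had 11.7, 13.4 and 13.6 CPM in the high-dose libraries, 14.2, 15.3 and 11.2 CPM in the low-dose libraries, 11.3, 16.6 and 12.0 CPM in the levodopa libraries, 12.1, 13.1 and 14.5 CPM in the MPTP libraries and 16.3, 16.8 and 14.5 CPM in the control libraries. The control libraries overlapped with the low-dose and levodopa libraries and lay above all high-dose and MPTP libraries. The lowest beta gene, Pcdhb1, had a mean of 0.101 CPM.

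Of the gamma A genes, Pcdhga11 had the highest level per kilobase, with 25.6, 26.4 and 25.2 CPM in the high-dose libraries, 29.2, 27.7 and 19.9 CPM in the low-dose libraries, 20.4, 48.7 and 22.4 CPM in the levodopa libraries, 23.0, 25.3 and 24.7 CPM in the MPTP libraries and 27.7, 52.5 and 22.1 CPM in the control libraries. Pcdhgb6, the highest of the gamma B genes per kilobase, had 27.0, 25.4 and 28.0 CPM in the high-dose libraries, 27.8, 28.7 and 20.7 CPM in the low-dose libraries, 22.3, 36.3 and 23.7 CPM in the levodopa libraries, 25.7, 19.8 and 24.1 CPM in the MPTP libraries and 28.1, 50.3 and 17.4 CPM in the control libraries. Both genes were highest in control 2 and levodopa 2, and the other 13 libraries lay between 19.9 and 29.2 CPM for Pcdhga11 and between 17.4 and 28.7 CPM for Pcdhgb6.

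Control 2 and levodopa 2 had more of many members than any of the other 13 libraries. This held for 18 of the 58 members (31.0%), against 20.2% of all 21821 genes tested. Of the 7 gamma B genes 6 were higher in both, as were 4 of the 12 gamma A genes, 6 of the 22 beta genes, and Pcdhac2 and Pcdhgc3 of the C-type. Pcdhgb2 had 35.8 CPM in control 2 and 29.5 CPM in levodopa 2, and 7.53 to 15.1 CPM elsewhere. Pcdha4 was the only member lower in both than in every other library (1.72% of the members, against 20.3% of all genes). The part of regional tissue in these values was not tested.

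**Figure D2:**
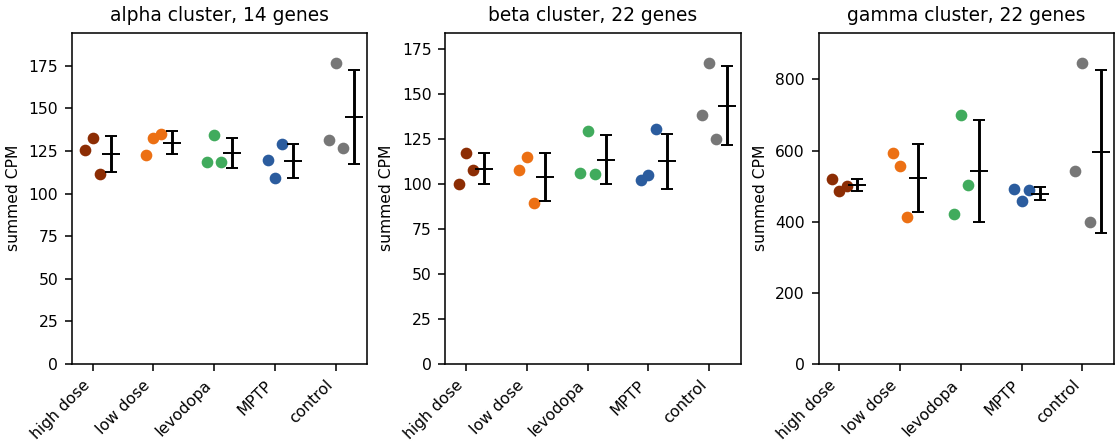
Points are single libraries, with the summed CPM of a cluster on the vertical axis from 0, and the bar beside each group gives the mean and SD of its 3 libraries. The gamma sums of control 2 (847 CPM) and levodopa 2 (701 CPM) stand above the other 13 libraries, which lie between 398 and 594 CPM.

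The gamma C genes included Pcdhgc5, the only member called in more than 1 comparison. Pcdhgc3, known from mouse cortical neurons for a role in dendrite branching, had 98.4, 74.8 and 100.3 CPM in the high-dose libraries, 103.0, 107.1 and 58.6 CPM in the low-dose libraries, 105.7, 251 and 115.6 CPM in the levodopa libraries, 115.2, 122.1 and 122.9 CPM in the MPTP libraries and 105.0, 302 and 90.5 CPM in the control libraries. Control 2 and levodopa 2 were again the highest, and both inhibitor groups lay below the MPTP libraries without overlap. Pcdhgc4, the isoform on which the survival of many inhibitory neurons depends in mice, had 35.0, 23.8 and 32.7 CPM in the high-dose libraries, 25.4, 31.1 and 18.0 CPM in the low-dose libraries, 52.3, 34.4 and 49.9 CPM in the levodopa libraries, 51.7, 41.4 and 53.3 CPM in the MPTP libraries and 42.3, 34.9 and 43.5 CPM in the control libraries. It too lay below the MPTP libraries in both inhibitor groups. Pcdhgc5, a late-appearing isoform described at inhibitory synapses of rat forebrain neurons, had 82.1, 101.0 and 74.7 CPM in the high-dose libraries, 142.9, 102.1 and 101.2 CPM in the low-dose libraries, 18.6, 24.0 and 47.8 CPM in the levodopa libraries, 24.4, 22.9 and 26.5 CPM in the MPTP libraries and 71.1, 32.5 and 25.6 CPM in the control libraries. Every inhibitor library was above all 9 others, and control 1 was nearest to them.

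**Figure D3:**
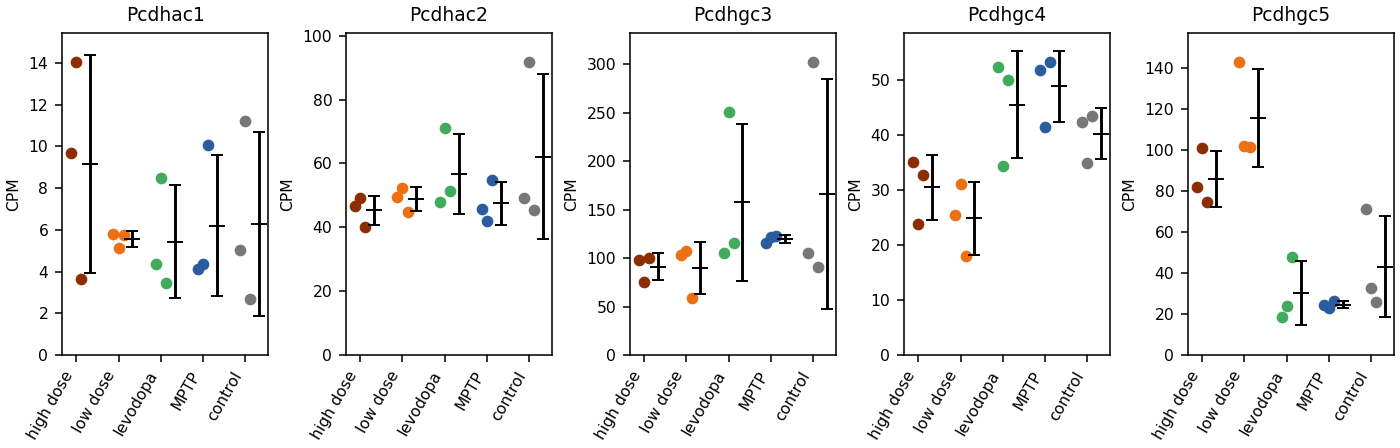
CPM of the 5 C-type members on axes from 0, with a point for each library and the mean and SD of each group beside it. Pcdhgc5 lies at 74.7 CPM or more in the 6 inhibitor libraries and at 71.1 CPM or less in the other 9, while Pcdhgc4 runs from 18.0 to 35.0 CPM in inhibitor libraries and from 41.4 to 53.3 CPM in MPTP libraries.

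Low-dose inhibitor libraries were compared with MPTP libraries, to ask what the drug changed after the toxin. Pcdhgc5 rose to 115.4 ± 23.8 CPM in low-dose libraries, against 24.6 ± 1.81 CPM in MPTP libraries (mean ± SD of 3 libraries each, as below). The log2 fold change was 2.23 ± 0.39 (SE), with an edgeR adjusted p of 0.00797. Pcdhgc4 fell to 24.8 ± 6.60 CPM in low-dose libraries, against 48.8 ± 6.45 CPM in MPTP libraries, with a log2 fold change of -0.97 ± 0.22 (SE) and an edgeR adjusted p of 0.0213. In the alpha cluster Pcdha12 rose to 15.3 ± 9.19 CPM, against 5.89 ± 0.346 CPM in MPTP libraries, with a log2 fold change of 1.38 ± 0.37 (SE) and an edgeR adjusted p of 0.0404. Markers of other cells differed in this comparison too: 8 of 12 endothelium and 3 of 12 astrocyte genes fell and 7 of 14 choroid plexus genes rose by edgeR. The endothelium list summed to 228 to 311 CPM in low-dose and 356 to 575 CPM in MPTP libraries, the astrocyte list to 4260 to 5157 CPM and 4681 to 5351 CPM, and the choroid plexus list to 947 to 1480 CPM and 59.4 to 66.8 CPM. No gene of these lists was at 0, and their part in the results was not tested. Regional and neuron markers differed as well: 6 of 16 cortex and hippocampus and 5 of 16 striatum genes rose by edgeR. In the dopamine neuron list 2 of 12 genes fell, and in the serotonin neuron list 1 of 8. Over all genes tested 4.78% rose and 3.75% fell. In bulk tissue a change in the number of cells of a type and a change in RNA per cell cannot be told apart, for these and the following results.

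These 3 were the members called in this comparison. The 2 higher ones were 3.45% of the members, against 4.78% of all genes tested, and the lower one 1.72%, against 3.75%, so the share of members called was not above that of all genes. Of the members 6.9% were higher in every low-dose than in every MPTP library and 13.8% lower, against 20.9% and 19.8% of all genes. DESeq2 called the same 3 and Pcdhb2, lower (adjusted p = 0.0348), 3.45% of the members in each direction, against 8.39% of all genes higher and 7.36% lower. No beta member passed with edgeR, with a median log2 fold change of -0.11 over the 22, and the gamma median was 0.08, against -0.0045 over all genes. Pcdha12 had 10.7, 9.37 and 25.9 CPM in the low-dose libraries, against 5.49, 6.09 and 6.08 CPM in the MPTP libraries. Low dose 3 was its highest library of all 15, and without it the log2 fold change was 0.78 with an edgeR adjusted p of 0.182. Without MPTP 1, 2 or 3 its adjusted p was 0.110, 0.124 and 0.122, and it was also lost without a filter on low counts. Pcdhgc4 had an edgeR adjusted p of 0.0628, 0.0864, 0.0566 and 0.0781 without MPTP 1, MPTP 3, low dose 1 and low dose 3, and Pcdhgc5 passed with any of the 6 libraries left out (adjusted p of 0.0148 to 0.0449).

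High-dose libraries against MPTP libraries gave 1 called member. Pcdhgc5 rose to 85.9 ± 13.5 CPM at the high dose, against 24.6 ± 1.81 CPM in MPTP libraries, with a log2 fold change of 1.81 ± 0.39 (SE) and an edgeR adjusted p of 0.0385. This was 1.72% of the members higher, against 1.08% of all genes, and 0 members lower, against 0.884%. The groups did not overlap in 13.8% of the members, against 39.8% of all genes. In this comparison 7 of 12 endothelium genes fell, and 2 of 14 choroid plexus and 2 of 16 cortex and hippocampus genes rose. Without any of the 6 libraries in turn the adjusted p ran from 0.0715 to 0.171, although the log2 fold change stayed at 1.67 to 1.91. Pcdhgc4 had 30.5 ± 5.93 CPM in high-dose libraries, with a log2 fold change of -0.68 ± 0.22 (SE) that did not pass (edgeR adjusted p = 0.125) and passed when control 2 and levodopa 2 were left out of the fit (0.0437). Pcdha12 had 12.9, 11.5 and 9.86 CPM in the high-dose libraries, above every MPTP library, and its log2 fold change of 0.96 did not pass (edgeR adjusted p = 0.185). Both of these comparisons use the same 3 MPTP libraries.

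The share of the gamma C genes in their cluster stayed narrow while their makeup differed. The 3 genes together took 39.0% to 45.7% of the gamma cluster's CPM in every library. Within that share, Pcdhgc5 took 17.1% ± 3.11 of the cluster in high-dose, 22.3% ± 3.44 in low-dose, 5.77% ± 3.25 in levodopa, 5.13% ± 0.253 in MPTP and 7.78% ± 4.77 in control libraries (SD, n = 3 each). Pcdhgc3 took 18.1% ± 2.47 in high-dose, 16.9% ± 2.54 in low-dose, 27.9% ± 6.91 in levodopa, 25.1% ± 1.62 in MPTP and 25.9% ± 8.64 in control libraries. Pcdhgc5 was 2.29 to 5.64 times Pcdhgc4 in every library with the inhibitor, against 0.356 to 1.68 times in the 9 without it, with control 1 at 1.68. These genes share their constant exons, so the way shared reads were assigned enters each share.

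The cortex and hippocampus score separated the same libraries as Pcdhgc5, with exceptions to a common order within them. High dose 3 had the lowest marker score of the inhibitor libraries, 0.72, and the lowest Pcdhgc5 of them, 74.7 CPM, and low dose 1 had the highest of both, 2.09 and 142.9 CPM. Outside the inhibitor groups, levodopa 3 and control 1 had the highest scores, 0.04 and -0.35, and the highest Pcdhgc5, 47.8 and 71.1 CPM. Control 2 had the lowest score of all, -2.19, with 32.5 CPM of Pcdhgc5, above MPTP 1 (-0.84, 24.4 CPM), MPTP 2 (-0.91, 22.9 CPM) and control 3 (-0.79, 25.6 CPM). Control 1 was also the library with the highest striatum score, 2.44, while the inhibitor libraries had striatum scores of 0.44 to 1.86. The 16 cortex and hippocampus genes summed to 1662 to 3414 CPM in high-dose, 3260 to 4227 CPM in low-dose, 661 to 1307 CPM in levodopa, 948 to 979 CPM in MPTP and 896 to 1562 CPM in control libraries, with none at 0.

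With the cortex and hippocampus, cerebellum, and thalamus and midbrain scores as covariates, 0 of all genes and so 0 members passed in the low-dose against MPTP comparison. Pcdhgc5 then had log2 fold changes of -0.18 ± 0.70 (SE, edgeR adjusted p of 0.973) in low-dose and -0.017 ± 0.52 (0.997) in high-dose against MPTP libraries. The cortex and hippocampus scores of inhibitor and other libraries do not overlap, so the inhibitor and the regional makeup of the tissue cannot be told apart for this gene. Read depth and the layout of the deposited counts followed the inhibitor too, and their part was not tested.

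**Figure D4:**
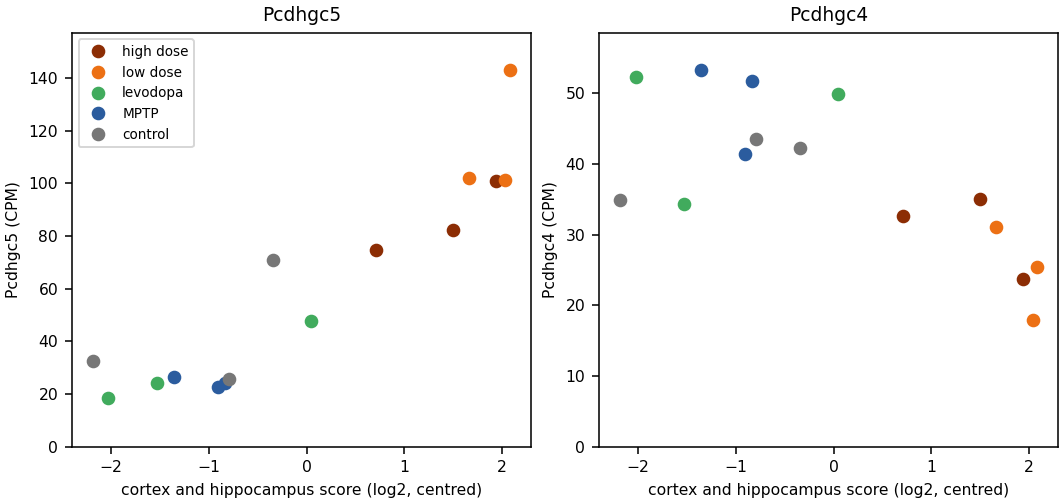
Each point is a library, with the cortex and hippocampus score (log2, centred on the 15 libraries) on the horizontal axis and the CPM of Pcdhgc5 (left) or Pcdhgc4 (right) on the vertical axis. Inhibitor libraries lie at scores of 0.72 and above, with Pcdhgc5 from 74.7 to 142.9 CPM, and the other 9 at scores of 0.04 and below.

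Between the doses, 0 of 58 members and 0% of all genes passed when high-dose libraries were compared with low-dose libraries by edgeR. At an unadjusted p under 0.05 there were 0 members and 486 genes (2.23%), and DESeq2 called 0 members and 0.00462% of all genes. The members of smallest p in each cluster did not pass. Pcdhac1 had 9.13 ± 5.22 CPM in high-dose libraries and 5.57 ± 0.379 CPM in low-dose libraries, Pcdhb18 had 8.95 ± 2.46 and 7.26 ± 1.22 CPM, and Pcdhgc4 had 30.5 ± 5.93 and 24.8 ± 6.60 CPM. Pcdhgc5 differed between high-dose and low-dose libraries by -0.43 ± 0.37 (SE) on the log2 scale (edgeR adjusted p = 1), and every high-dose value lay below every low-dose value.

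Low-dose libraries were next set against control libraries. Pcdhb21, a beta gene, fell to 1.12 ± 0.270 CPM in low-dose libraries, against 2.86 ± 0.638 CPM in control libraries, with a log2 fold change of -1.35 ± 0.26 (SE) and an edgeR adjusted p of 0.0194. It had 1.20, 1.35 and 0.823 CPM in the low-dose libraries, against 2.64, 3.58 and 2.36 CPM in the control libraries, with no overlap. Pcdhgc5 rose to 115.4 ± 23.8 CPM in low-dose libraries, against 43.0 ± 24.5 CPM in control libraries, with a log2 fold change of 1.42 ± 0.38 (SE) and an edgeR adjusted p of 0.0496. These calls were 1.72% of the members in each direction, against 2.74% of all genes higher and 2.66% lower. Marker genes differed in this comparison too. By edgeR 4 of 16 cortex and hippocampus genes rose. In the same test 2 of 12 astrocyte, 1 of 12 endothelium, 1 of 16 cerebellum and 1 of 12 thalamus and midbrain genes fell. The part of tissue makeup was not tested.

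No other beta member passed. Of the 22, 21 had a negative log2 fold change, with a median of -0.53, against -0.01 over all genes. In 13 of them the low-dose libraries all lay below the control libraries, and over all members this was so for 27.6%, against 12.2% of all genes. Pcdhb16 had the largest difference after Pcdhb21 in the beta cluster, 4.92 ± 1.58 CPM in low-dose libraries and 11.5 ± 4.13 CPM in control libraries, with an edgeR adjusted p of 0.0567. It was picked after its value was seen. Control 2, with its high cerebellar markers, was the highest control for many beta members, and without it and levodopa 2 the beta median was -0.37, with 21 of 22 still negative. The gamma median turned from -0.27 to 0.05 on that change, and the alpha median from -0.19 to 0.11.

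Both calls against control depended on single libraries. By edgeR, Pcdhgc5 was lost without control 2 (adjusted p of 0.151), without control 3 (0.123) and without low dose 1, 2 or 3 (0.125, 0.0794 and 0.120), and Pcdhb21 without control 2 (0.0623) and without low dose 3 (0.0789). With control 2 and levodopa 2 both left out, Pcdhb21 and Pcdhgc4 passed, both lower, and Pcdhgc5 did not (adjusted p of 0.0851). DESeq2 called Pcdhgc5 higher (1.72% of the members, against 6.24% of all genes it tested) and 8 members lower, 7 of them beta genes (13.8%, against 6.7%). With a filter of 5 CPM in 3 libraries, edgeR called Pcdhgc5, Pcdhb16 and Pcdhb22, the beta genes with adjusted p of 0.0409 and 0.0448.

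In high-dose libraries against control libraries, 0 members passed with edgeR, against 0.376% of all genes (82 genes), and DESeq2 called 3 (Pcdhb16, Pcdhb19 and Pcdhb21, all lower), 5.26% of the members with an adjusted p from it, against 3.98% of all genes lower. At an unadjusted p under 0.05, 10 members were lower (17.2%, against 10.8% of all genes) and 1 was higher (1.72%, against 9.22%). Pcdhb21 had 1.06, 1.35 and 1.68 CPM in the high-dose libraries, all below the controls, with a log2 fold change of -1.07 ± 0.26 (SE) and an edgeR adjusted p of 0.0789. Pcdhgc5 had 85.9 ± 13.5 CPM in high-dose libraries and 43.0 ± 24.5 CPM in control libraries, with a log2 fold change of 1.00 ± 0.38 (SE) and an edgeR adjusted p of 0.182, and Pcdha11 had 4.72 ± 0.784 and 7.94 ± 3.93 CPM (0.245). The beta median was -0.40, with 20 of 22 members negative, and -0.27 with 21 of 22 negative without control 2 and levodopa 2. In 24.1% of the members the high-dose libraries all lay below the controls, against 13% of all genes. Here 1 of 16 cortex and hippocampus genes rose by edgeR, and the part of tissue makeup was not tested.

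MPTP libraries were also compared with control libraries, and edgeR called 0 of the 58 members and 0% of all genes. Marker lists differed between these groups, with no gene passing. All 12 dopamine neuron genes were higher in MPTP libraries (median log2 fold change 1.68). All 16 cerebellum genes (median -3.67), 14 of 16 striatum genes (-1.88) and 13 of 14 choroid plexus genes (-2.15) were lower. The part of tissue makeup in this comparison was not tested. At an unadjusted p under 0.05 there were 1445 genes (6.62%) and 7 members (12.1%), all 7 lower, and DESeq2 called 0 members and 0.235% of all genes. Of the 22 beta members 21 had a negative log2 fold change, with a median of -0.30, against -0.01 over all genes. The lowest p among them was that of Pcdhb20, with 9.47 ± 1.54 CPM in MPTP libraries and 13.3 ± 1.92 CPM in control libraries, where the log2 fold change of -0.49 ± 0.16 (SE) had an edgeR adjusted p of 0.717. Pcdha11 in the alpha cluster had 4.61 ± 1.42 and 7.94 ± 3.93 CPM, and Pcdhgc5 in the gamma cluster 24.6 ± 1.81 and 43.0 ± 24.5 CPM, both with an adjusted p of 0.717. In 7 members (12.1%) the MPTP libraries all lay below the controls, against 6.2% of all genes. Without control 2 and levodopa 2 the beta median was -0.18 with 18 of 22 negative, and the gamma median changed sign, to 0.05 against -0.23 with all libraries.

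All 3 comparisons with control use the same 3 control libraries, so their shared direction in the beta cluster rests on the same controls. The beta cluster summed to 100.3, 117.3 and 108.1 CPM in high-dose, 107.6, 114.9 and 89.4 CPM in low-dose, 106.0, 129.4 and 105.5 CPM in levodopa, 102.6, 105.0 and 130.4 CPM in MPTP and 138.6, 167.6 and 125.0 CPM in control libraries. Levodopa 2 and MPTP 3 reached above control 3, and the other 10 treated libraries lay below all controls.

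**Figure D5:**
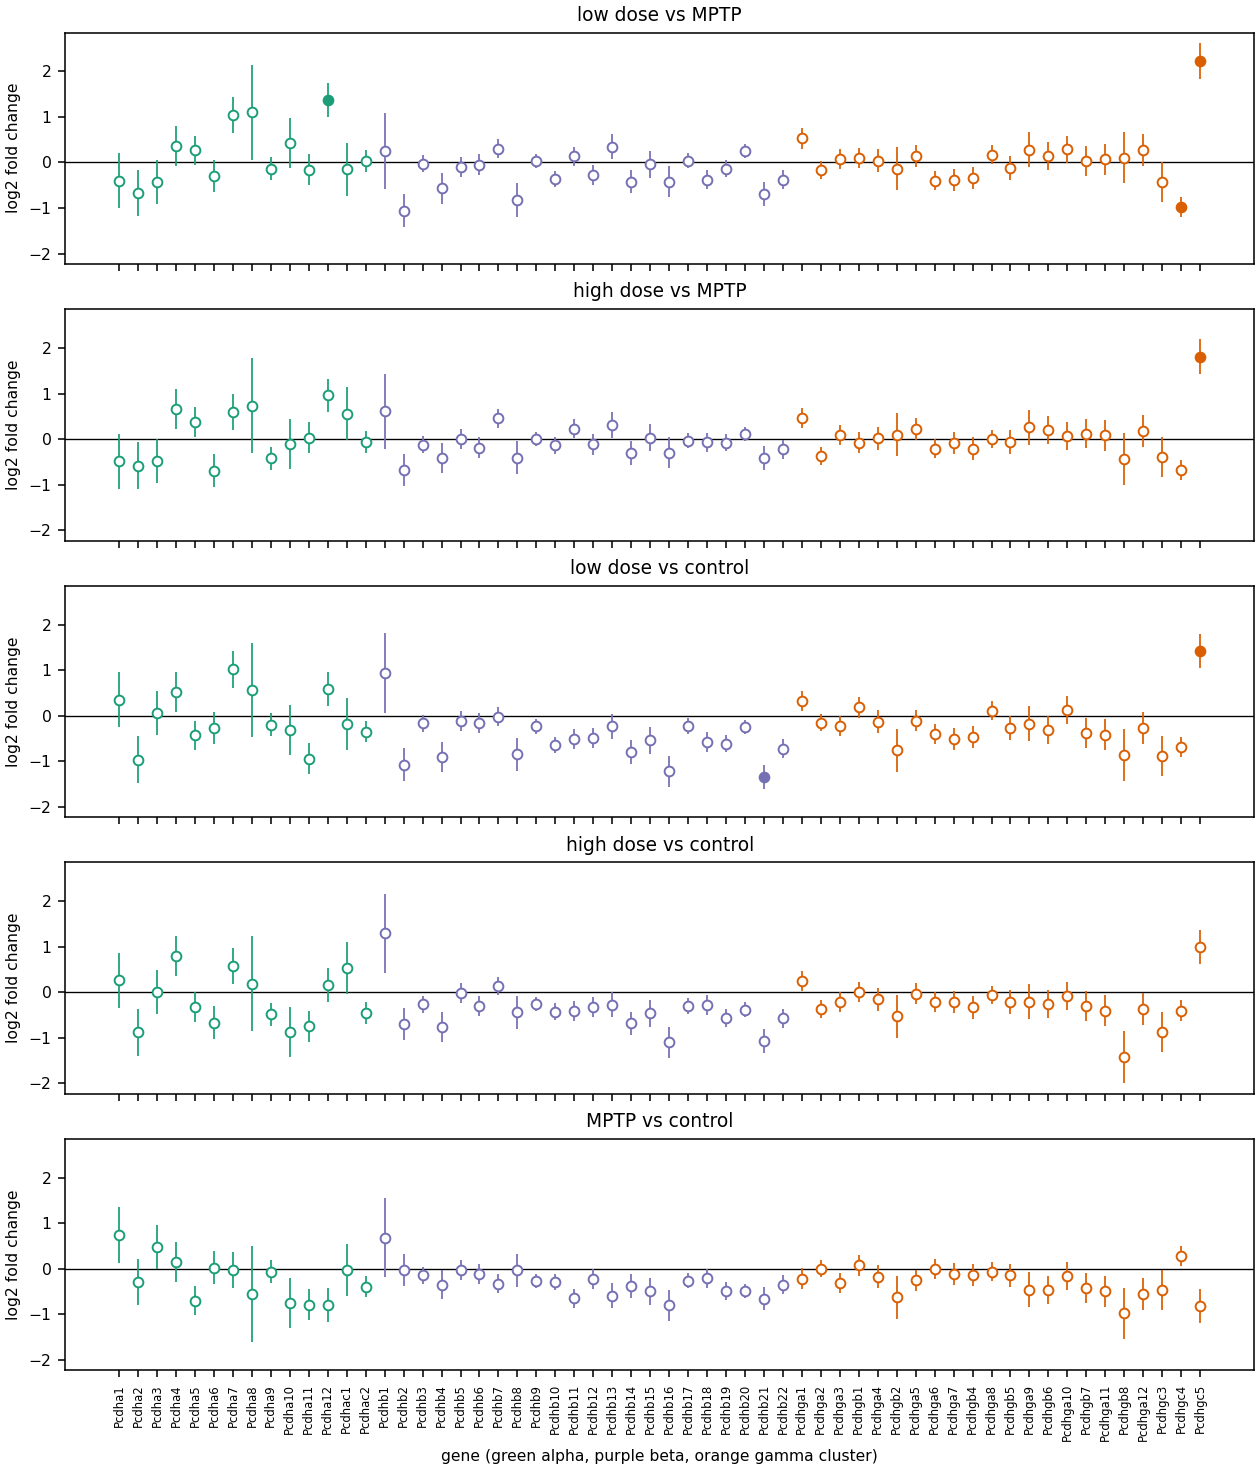
Log2 fold changes of the 58 members in chromosome order, with bars of 1 SE and filled points for members with an edgeR adjusted p under 0.05 over all genes. Pcdhgc5 at the right end is filled in 3 panels, and 20 or 21 of the 22 beta points (purple) lie below 0 in each panel against control.

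Levodopa libraries were compared with MPTP libraries, and edgeR called 0 members and 0% of all genes, and DESeq2 called 0 members and 0.00923% of all genes. At an unadjusted p under 0.05 there were 1 member (1.72%) and 645 genes (2.96%). That member was Pcdhgb8, with 2.67 ± 1.69 CPM in levodopa libraries and 1.12 ± 0.167 CPM in MPTP libraries (edgeR adjusted p = 0.954), and levodopa 2 was its highest library of all. Pcdha7 and Pcdhb11 had the smallest p of the alpha and beta clusters and did not pass (adjusted p = 0.954 for both). Median log2 fold changes were 0.0033 for alpha, 0.011 for beta and 0.13 for gamma members, and without control 2 and levodopa 2 they were -0.023, -0.09 and -0.086.

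Genes that act on the clusters were taken from a list of 20 regulators, among them the insulator protein CTCF and cohesin subunits that loop enhancers to the promoters. None passed in low-dose or high-dose against MPTP libraries. In low-dose against control libraries 19 of the 20 had a negative log2 fold change. Without control 2 and levodopa 2 that was 14 of 20, with a median of -0.14, against -0.30 with all libraries. In high-dose against control libraries all 20 were negative, none passing, with a median of -0.41, against -0.01 over all genes. Without control 2 and levodopa 2, 17 of the 20 stayed negative there, with a median of -0.24. The same lean was present without the inhibitor. In MPTP against control libraries all 20 were negative, none passing, with a median of -0.31. Without control 2 and levodopa 2 that was 15 of 20, with a median of -0.08. In levodopa against MPTP libraries 19 of the 20 were positive, none passing. The comparisons with control use the same control libraries.

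Of 21 partners and signalling proteins of the clustered protocadherins, 5 rose (against 4.78% of all genes) and 1 fell (against 3.75%) in low-dose against MPTP libraries. Of those that rose, Wasf1, Brk1 and Abi2 encode subunits of the WAVE complex, which drives actin branching and binds protocadherin tails. The other subunits of this complex in the list, Cyfip1, Cyfip2, Nckap1 and Abi1, did not pass. Wasf1 had 167.0 ± 2.67 CPM in low-dose libraries and 57.8 ± 1.84 CPM in MPTP libraries (log2 fold change 1.53 ± 0.23 SE, edgeR adjusted p = 0.00381). Brk1 had 133.8 ± 11.2 CPM in low-dose and 72.0 ± 4.78 CPM in MPTP libraries (0.89 ± 0.14 SE, edgeR adjusted p = 0.00477). Prkca, a protein kinase C that phosphorylates the shared gamma tail, and Ptk2, the focal adhesion kinase held in check by that tail, rose by log2 fold changes of 1.05 and 0.66. Ret, a receptor kinase that is also a marker of dopamine neurons, fell to 18.1 ± 10.4 CPM in low-dose libraries, against 83.3 ± 18.0 CPM in MPTP libraries (edgeR adjusted p = 0.0151). Abi2 and Ret were named after their values were seen. In high-dose against MPTP libraries Wasf1 (log2 fold change 1.25, adjusted p = 0.0237) and Brk1 (0.61, adjusted p = 0.048) rose, Brk1 passing with none of the 6 libraries left out and Wasf1 only with high dose 3 left out. Against control libraries Wasf1, Brk1 and Prkca rose at the low dose, by log2 fold changes of 1.05, 0.80 and 0.88. Of these, Brk1 did not pass without low dose 3, and Wasf1 and Prkca passed only without control 1. With the regional scores as covariates the log2 fold change of Wasf1 was -0.058 in low-dose and 0.0071 in high-dose against MPTP libraries, and neither passed.

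Of 12 measured non-clustered protocadherins, which lie outside the clusters and lack the shared tail, Pcdh1 alone passed. It rose to 143.3 ± 20.8 CPM in low-dose libraries, against 81.4 ± 8.11 CPM in MPTP libraries (log2 fold change 0.82 ± 0.21 SE, edgeR adjusted p = 0.032) and 72.2 ± 10.9 CPM in control libraries (0.99 ± 0.21 SE, adjusted p = 0.0238). Against MPTP libraries it passed with none of the 6 libraries left out (adjusted p of 0.0524 to 0.128), and against control libraries only without control 1. The score of these genes was -1.46 in control 2 and -1.13 in levodopa 2, and from -0.15 to 0.36 in the other 13 libraries.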

How the data were processed

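Whole-number read counts per gene symbol were deposited by the authors, 1 file per library, from TruSeq Stranded mRNA libraries of mouse brain, per the labels' protocols. Tools named in the submitters' processing notes are StringTie 2.1.3b, HISAT2 2.1.0, Trimmomatic and bcl2fastq 2.20.0, with the build GRCm38/mm10. How reads shared by several genes were counted, and with which annotation and strand setting, is not given in the sources used here.

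Members and gene lists were chosen with earlier results of these data known. All 15 libraries were fitted together with edgeR 4.0.16 (R 4.3.3): TMM, filterByExpr by group, quasi-likelihood test, no covariates, and Benjamini-Hochberg adjustment over 21821 genes at 0.05. Each SE was taken as the fitted log2 fold change over the root of its F statistic. Levels are TMM-scaled CPM, and 3 reads correspond to at most 0.0516 CPM. The scores of 15 lists (207 of 208 entries found) use log2 CPM with a prior count of 2. Cluster sums were not tested. The result of 1 listed gene is not reported here.

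Values are given by library for the C-type members, for the most abundant alpha, beta, gamma A and gamma B gene, and for called members. Where none was called, the smallest p of each cluster is named, and of other lists at most 4 called genes. The labels do not say that libraries are separate mice, so a p-value covers the spread between libraries alone, and this spread may be technical. No library pair of a group agreed within sampling noise (chi-square per degree of freedom 29.3 to 468). Positions come from RefSeq (GRCm38.p6) and exon lengths from GENCODE M21, matched by gene start. The 3 read-through symbols at the locus, with at most 211 reads each, were left out.

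Alternatives were RLE and upper-quartile scaling, a DESeq2 1.42.0 test, 5 CPM in 3 libraries as the filter, no filter, only the 2 groups compared, the replicate number as a block, each library left out, both libraries of high cerebellar markers left out, 3 regional scores as covariates and, for cluster sums, library totals in place of TMM.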

Additional observations from a re-analysis of the deposited data

How the results depend on the processing

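Without 1 library at a time, the number of members called ran from 1 to 3 in low-dose against MPTP libraries (3 with all), was 0 each time in high-dose against MPTP libraries (1 with all), and ran from 0 to 3 in low-dose against control libraries (2 with all). With regional scores as covariates 0 members passed in each of these. Among the genes named by the rule, the log2 fold changes that then changed sign were those of Pcdhgc5 in low-dose (-0.18) and high-dose (-0.017) against MPTP and in low-dose (-0.70) and high-dose (-0.53) against control libraries, of Wasf1 in low-dose against MPTP (-0.058) and control (-0.24), and of Prkca in low-dose against MPTP (-0.029) and control (-0.071) libraries. Other members changed sign as well: 5 of 22 gamma genes were then positive in low-dose against MPTP libraries (14 before) and 3 in high-dose against MPTP libraries (13 before). The cause was not tested. In high-dose against MPTP libraries the count was 0 without a filter, 2 without control 2 and levodopa 2, and 4 with only the 2 groups fitted. In low-dose against control libraries it was 1 with RLE, 1 with upper-quartile scaling, 1 without a filter, 9 with DESeq2, 3 with the 5 CPM filter and 0 with only the 2 groups fitted. In high-dose against control libraries DESeq2 called 3, against 0 with edgeR. Counts of 0 in MPTP against control, levodopa against MPTP and high against low dose stayed at 0 in these alternatives. Group means of cluster sums, recomputed with RLE factors and with library totals, moved by less than 1 SD. Leaving out 1 of 3 libraries cannot move a mean by 1 SD of those libraries, so that alternative could not show a dependence. The control gamma sums, for example, were 543, 847 and 398 CPM.

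The replicate number did not pair the libraries: same-numbered libraries of the MPTP and control groups had correlations of 0.239, 0.0522 and 0.0467 in their deviations from the group means, and no comparison met the rule of every pair above 0.1. With the replicate number as a block, 2 members were called in low-dose against MPTP libraries, Pcdha12 being lost (adjusted p = 0.0623), 0 members were called in high-dose against MPTP and 1 in low-dose against control libraries. Depth limits the lowest genes, such as Pcdhb1 with at most 14 reads in a library.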
